A study of Mus musculus with 3 samples.

Results

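The cytosolic ribosomal proteins are the protein parts of the ribosome that works in the cytoplasm, and their genes were taken here as every gene probe whose printed gene symbol is Rpl or Rps followed by a number (with a closing a, x, l or y where there is one), Rplp0 to Rplp2, or Rpsa. The rule uses symbols and no measured value. It found 82 of the 26840 gene symbols on the array, 32 of the small (40S) subunit and 50 of the large (60S) subunit, measured by 181 of 56605 gene probes. RefSeq lists all 82 symbols, 81 as protein coding and Rps4l as a transcribed pseudogene.

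The cells were RAW 264.7, a mouse macrophage cell line made with a transforming leukaemia virus, and all 3 groups received LPS, the Toll-like receptor 4 agonist, at 50 ng/mL. The LPS group received no bacteria. The CRL1505 + LPS group was first kept for 24 h with *Lactobacillus rhamnosus* CRL1505 and the CRL1506 + LPS group with *Lactobacillus plantarum* CRL1506, each at 50000000 cells/mL, and both were washed before LPS. The time under LPS is 12 h in the series' design text and 3 h in the sample descriptions. Each group was 1 one-colour array of 1 RNA sample, so no difference has a replicate check and no p-value is given. The CRL1505 + LPS array was on another slide and in another scan run than the other two arrays, so an effect of the strain cannot be told apart from one of the slide, and both comparisons with LPS share the LPS array. Non-stimulated cells were not analysed here.

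Levels are the scanner's processed signals scaled to each array's 75th percentile of gene spots, and a log2 ratio is the difference of scaled log2 levels. The 75th percentile was 743 signal units on the LPS array and lower on the others, at 517 (CRL1505) and 698 (CRL1506). Between 48.5 and 55.3% of gene spots were well above background. As a check of the cell type, 9 of 9 macrophage markers were well above background on each array, with summed signals of at least 515642. Of markers of other cells, at most 3 of 4 for T cells, 1 of 3 for B cells, 1 of 2 for NK cells, 3 of 3 for neutrophils, 1 of 4 for epithelium and 2 of 3 for fibroblasts passed on any array, with summed signals per list of at most 2171. The number of arrays limits the precision of every value.

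The ribosome holds most of these proteins in equal amounts, and a growing cell spends a large share of its messenger RNA on making them. Their mRNAs are known to start with a run of pyrimidines (the 5′ terminal oligopyrimidine, or TOP, motif) through which the mTOR pathway and the RNA-binding protein Larp1 adjust their translation, so that their synthesis can change while mRNA levels stay level. Some of the proteins have roles outside the ribosome in macrophages: Rpl13a can leave it to silence inflammatory mRNAs, and Rps3 can bind NF-κB.

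The ribosomal protein genes were among the brightest on the array. Of the 82 members, 79 were well above background on all 3 arrays, and no member spot was saturated. A total of 77 members had a mean log2 level of 6 or more above the 75th percentile, where 478 other genes were found. The brightest probe of a gene stood for it, and summed over these probes the members gave 11.6% of the signal of all genes with LPS, 11.0% with CRL1505 + LPS and 11.2% with CRL1506 + LPS, a share that does not depend on the scaling of an array.

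The probes below belong to some of the members named in the comparisons that follow. Each is a 60-base sequence printed 5′ to 3′ with its place on mm9, the build of the array's design. Capitals mark the longest run that is shared with a probe made for another transcript.

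Rps2, chr17:24857583-24857642: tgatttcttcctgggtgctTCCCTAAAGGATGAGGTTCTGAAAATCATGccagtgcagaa

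Rps7, chr12:29319087-29319146: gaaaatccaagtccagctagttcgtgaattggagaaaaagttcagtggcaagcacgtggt

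Rps15, chr10:79756714-79756773: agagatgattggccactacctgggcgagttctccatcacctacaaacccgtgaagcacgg

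Rpl3l, chr17:24872413-24872681: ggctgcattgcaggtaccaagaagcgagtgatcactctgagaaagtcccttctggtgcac

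Rps4l, chr6:148304018-148304077: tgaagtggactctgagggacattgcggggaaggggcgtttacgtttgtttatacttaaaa

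The Rps2 and Rps7 probes represent their genes, as do those of Rpl3l and Rps4l, and the Rps15 sequence is that of its second probe. All 5 are open in at least 1 reading frame. The Rpl3l positions span more than the 60 bases of the probe, as where a probe crosses a splice junction. Ribosomal protein genes have many processed copies in the mouse genome, and a run of 20 or more identical bases with a probe of another entry was found for the representing probe of 28 members and for any probe of 41. The longest was a run of 56 bases between the Rpl37a probe and a probe named for Cnbd2. The representing probes of 2 members, Rps27 and Rps29, were placed by the design on another chromosome than the RefSeq gene. The signals of these members may hold RNA of copies, and their part in the ratios was not tested.

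The first question was whether the mRNAs of the ribosome changed in LPS-treated macrophages that had met CRL1505. Their ratios lay in a narrow range. Over the 79 members well above background on both arrays, the median log2 ratio was 0.12 with an SD of 0.14 over genes, and ratios ran from -0.32 for Rpl3l to 0.37 for Rps2. Of these, 62 were above 0 and 17 below under the main scaling, a split that was 0 and 79 under spike-in scaling, 78 and 1 under median scaling and 39 and 40 under quantile normalization. None of the 80 members compared was 2-fold higher or lower, where 9.92% of all 15609 genes compared were higher and 8.41% lower by that much. The median over all genes was 0.06 with an SD of 0.75. The 478 other genes of mean log2 level 6 or more had an SD of 0.62, and 13.2% of them were 2-fold higher or lower.

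The median was 0.12 (SD 0.14, n = 31) for the small subunit and 0.11 (SD 0.13, n = 48) for the large one. As a measure of error, 2 or more probes of one gene differed with a median SD of 0.23 over 5478 genes on the array. By more than that, 15 members were higher and 2 lower. Over all genes the 25th and 75th percentiles of the ratio were -0.32 and 0.41, both farther from 0 than 0.23. Spots of one probe varied far less than probes of one gene. For the 66 member probes printed 10 times, the SD of the ratio over spots had a median of 0.04 and did not exceed 0.10. Both measures cover 1 hybridisation of 1 RNA sample per group, not the spread between cultures.

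**Figure D1:**
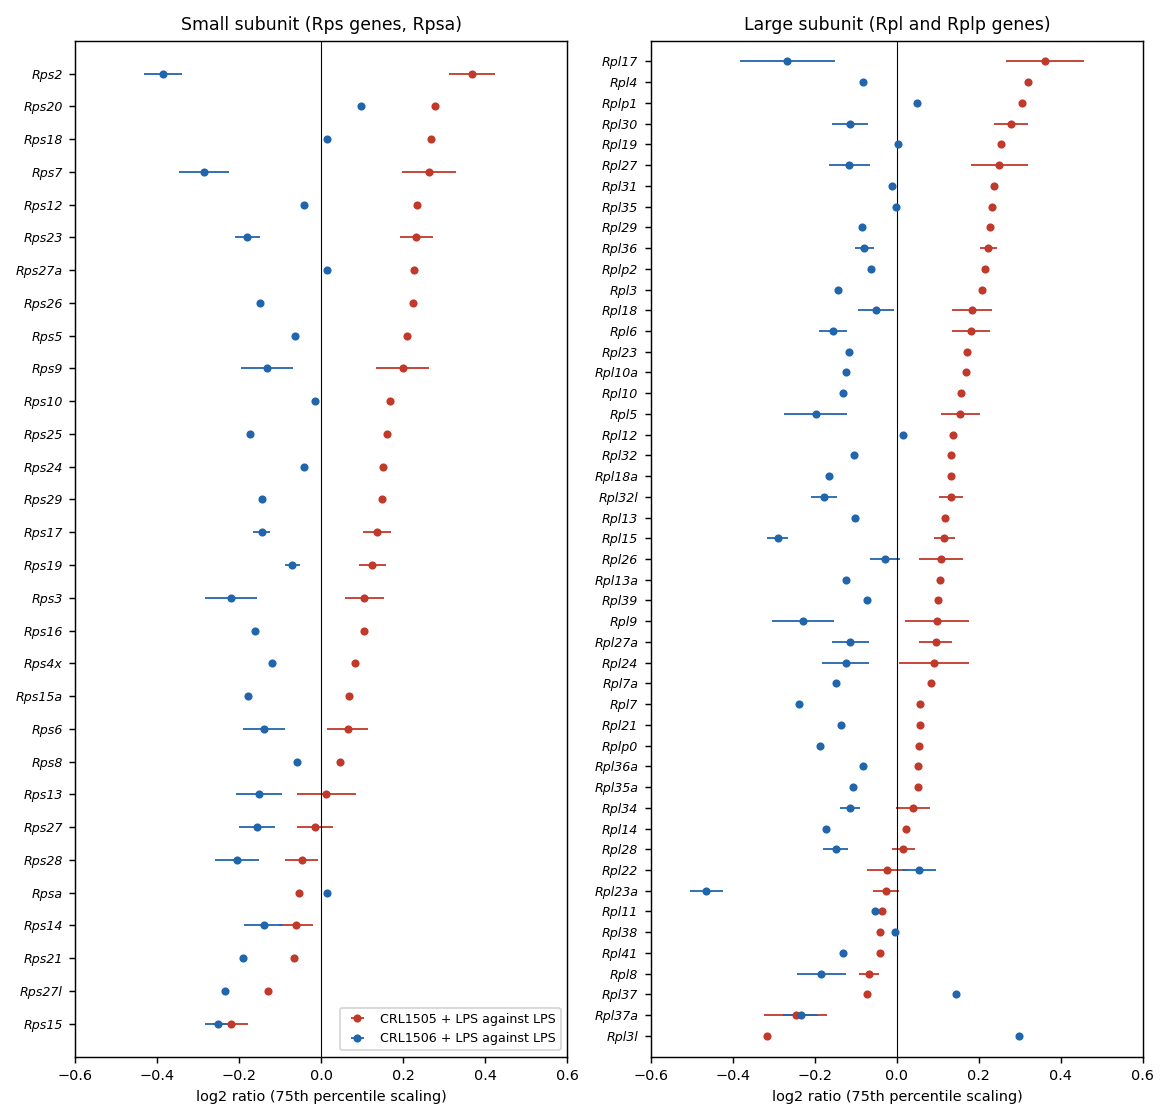
Log2 ratio (x axis) of each ribosomal protein gene (rows, sorted by the CRL1505 ratio) in CRL1505 + LPS against LPS (red) and CRL1506 + LPS against LPS (blue), for the members reported here with each of the 3 arrays well above background. Bars are the SD over the spots of a probe printed 10 times, and points without bars come from 1 spot; both comparisons share the LPS array, red points lie between -0.32 and 0.37 and blue points between -0.47 and 0.30.

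Rps2, a protein of the small subunit near the mRNA entry channel, had the highest ratio. Its signal before scaling was 94874 with LPS, 85185 with CRL1505 + LPS and 68217 with CRL1506 + LPS. After scaling the ratio was 0.37 ± 0.06 (SD over 10 spots of 1 probe) with CRL1505 and -0.39 ± 0.05 with CRL1506. A second Rps2 probe gave 0.30 and -0.39, so both bright probes lay on the same side in each comparison. The design placed this second probe elsewhere on the chromosome, at chr17:42864841-42864900. It shares a run of 33 bases with a probe of another entry, and the representing probe a run of 30. Both signals may hold RNA of copies, which was not tested. The remaining Rps2 probe was not well above background.

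Rpl17, which lines the tunnel through which the new peptide leaves, behaved likewise. Its signal was 77021 with LPS, 68751 with CRL1505 + LPS and 59981 with CRL1506 + LPS. The ratio was 0.36 ± 0.10 (SD over 10 spots) with CRL1505, and its other probes gave 0.23 and 0.27. Rps7, a small-subunit protein, had signals of 72033, 60088 and 55427 in the same order and a ratio of 0.26 ± 0.07 (SD over 10 spots). Next in the CRL1505 comparison were Rpl4, another protein of the exit tunnel, at 0.32, the stalk protein Rplp1 at 0.31, and Rpl30 at 0.28. The 2 further probes of Rplp1 gave 0.09 and 0.06, and the second bright probe of Rpl30 gave 0.16, so the size for these genes depended on the probe.

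At the low end was Rpl37a, a zinc-binding protein of the large subunit. Its signal was 345261 with LPS, 202319 with CRL1505 + LPS and 275417 with CRL1506 + LPS. The ratio was -0.25 ± 0.08 (SD over 10 spots) with CRL1505 and -0.23 ± 0.04 with CRL1506. This is the member whose probe shares 56 of its bases with the Cnbd2 probe.

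Rps15, a protein of the head of the small subunit, was low with both strains. Its signal was 112235, 66992 and 88526 on the LPS, CRL1505 + LPS and CRL1506 + LPS arrays, a ratio of -0.22 ± 0.04 (SD over 10 spots) with CRL1505 and -0.25 ± 0.03 with CRL1506. The second Rps15 probe, whose sequence is printed above, gave -0.36 and -0.19. Rps27l at -0.13, with -0.06 for its second probe, was the next lowest of the bright members.

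The same question for CRL1506 gave a median of -0.12 with an SD of 0.19 over the 80 members measured, 11 of them above 0 and 69 below under the main scaling. Under quantile normalization 34 of the 80 were above 0, and under cyclic loess 58. The small subunit stood at -0.15 (n = 32) and the large at -0.12 (n = 48). All genes had a median of -0.06. One of the 81 members compared was 2-fold higher and none 2-fold lower, beside 5.67% and 3.52% of all 16284 genes compared. That 1 gene was the pseudogene Rps4l. Without it the highest ratio was 0.30, of Rpl3l. Over the 77 members of mean log2 level 6 or more the SD was 0.10, against 0.32 for the 478 other genes as bright.

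Rpl23a, which sits at the mouth of the exit tunnel, had the lowest ratio with CRL1506. Its signal was 93864 with LPS, 64118 with CRL1505 + LPS and 63886 with CRL1506 + LPS. The ratio was -0.47 ± 0.04 (SD over 10 spots) and its second probe gave -0.48. With CRL1505 the same probes gave -0.03 and 0.02. After Rpl23a and Rps2 came Rpl15 at -0.29, with -0.41 for its second probe, Rps7 at -0.29 and Rpl17 at -0.27.

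Among the 11 members above 0 with CRL1506 under the main scaling, Rps20, of the head of the small subunit, was at 0.10. Its second bright probe gave -0.02 and a dim one 0.65, so its side of 0 depended on the probe. Rpl22, known for its part in lymphocyte development, was at 0.05 ± 0.04 (SD over 10 spots). The ratios with CRL1506 also followed brightness within the set. The median was -0.24 for the 9 members of mean log2 level 6 to 7, -0.14 for the 34 of level 7 to 8 and -0.07 for the 34 above 8, while other genes of these levels had medians of -0.07, -0.07 and 0.02. With CRL1505 the medians of the members in the same classes were 0.11, 0.10 and 0.15.

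**Figure D2:**
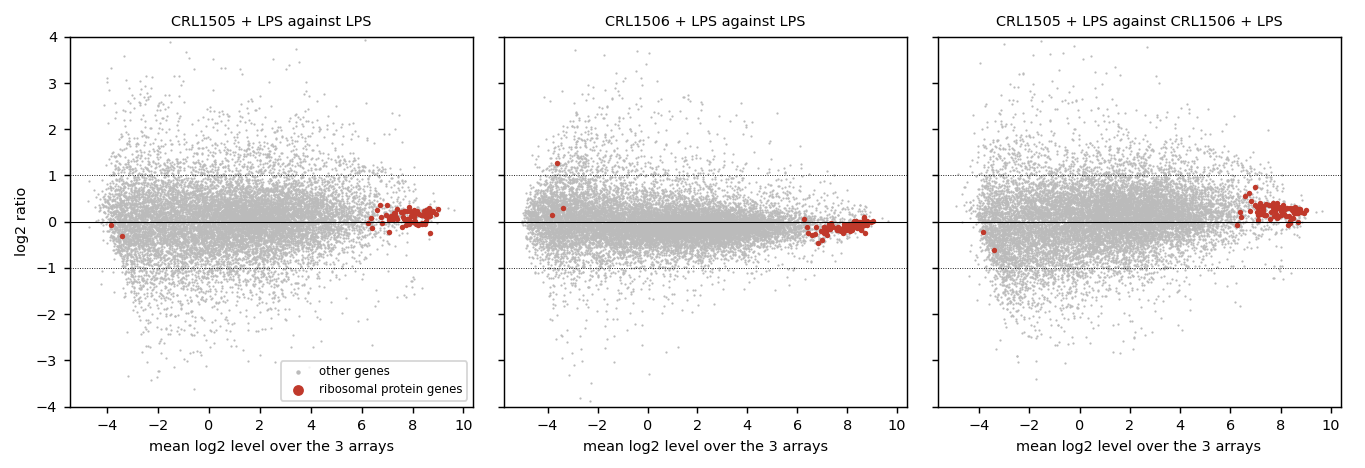
Log2 ratio (y axis) against the mean log2 level over the 3 arrays (x axis) for all genes well above background in each comparison, with ribosomal protein genes in red and other genes in grey; dotted lines mark 2-fold and genes beyond a log2 ratio of 4 either way are not drawn. The 77 bright members form a narrow band at the right of each panel, between the wider scatter of other genes of the same level.

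Set directly against each other, the CRL1505 + LPS array read higher than the CRL1506 + LPS array for 73 of 79 members and lower for 6 under the main scaling. It read higher for 7 and lower for 72 under spike-in scaling, higher for 19 and lower for 60 under cyclic loess, and higher for 40 and lower for 38 in the deposited table. The median log2 ratio was 0.23 with an SD of 0.17, beside 0.09 with an SD of 0.70 for all genes and 0.24 with an SD of 0.52 for the 478 other bright genes. None of the 80 members compared was 2-fold higher and 1, Rps4l, at least 2-fold lower, where 9.01% and 7.46% of 15785 genes were. The highest ratios were those of Rps2 at 0.75 ± 0.09, Rpl17 at 0.63 ± 0.09 and Rps7 at 0.55 ± 0.04 (each SD over 10 spots), then Rpl23a at 0.44 and Rps23 at 0.41. The lowest of the bright members were Rpl22 at -0.08, Rpsa at -0.07 and Rpl38 at -0.04. The probes of a gene differed with a median SD of 0.32 in this comparison, which 17 members exceeded upwards and 1, Rpl3l, downwards. Over all genes the 25th and 75th percentiles of this ratio were -0.31 and 0.45.

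How far the whole set stood from 0 depended on the scaling. Under 7 other normalizations the members' median ran from -0.39 (spike-in probes) to 0.41 (median scaling) with CRL1505, from -0.32 (median scaling) to 0.03 (cyclic loess) with CRL1506, and from -0.17 to 0.73 between the strains. The median of all genes moved with it under the scalings that shift a whole array by a constant, but not under every normalization. With CRL1505 under cyclic loess the members' median was -0.02 and that of all genes 0.07, beside 0.12 and 0.06 under the main scaling. Relative to the median of all genes the members also changed side with the normalization. The difference was 0.06 with CRL1505, -0.06 with CRL1506 and 0.14 between the strains under the main scaling, and -0.08, 0.07 and -0.13 under cyclic loess. Against the 478 other genes as bright, the members' median differed by -0.09 to -0.07 with CRL1505 and by -0.11 to -0.08 with CRL1506 under the main and the 7 other normalizations. Between the strains the difference from these genes ran from -0.02 to 0.05. Median scaling, spike-in scaling and the percentile scaling over probes well above background shift a whole array by a constant. Such a shift cancels in a difference of medians, so these runs repeat the main value and are no check. Under quantile normalization the differences from the bright genes were -0.09, -0.10 and 0.05 in the same order, and under cyclic loess -0.09, -0.08 and -0.02.

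**Figure D3:**
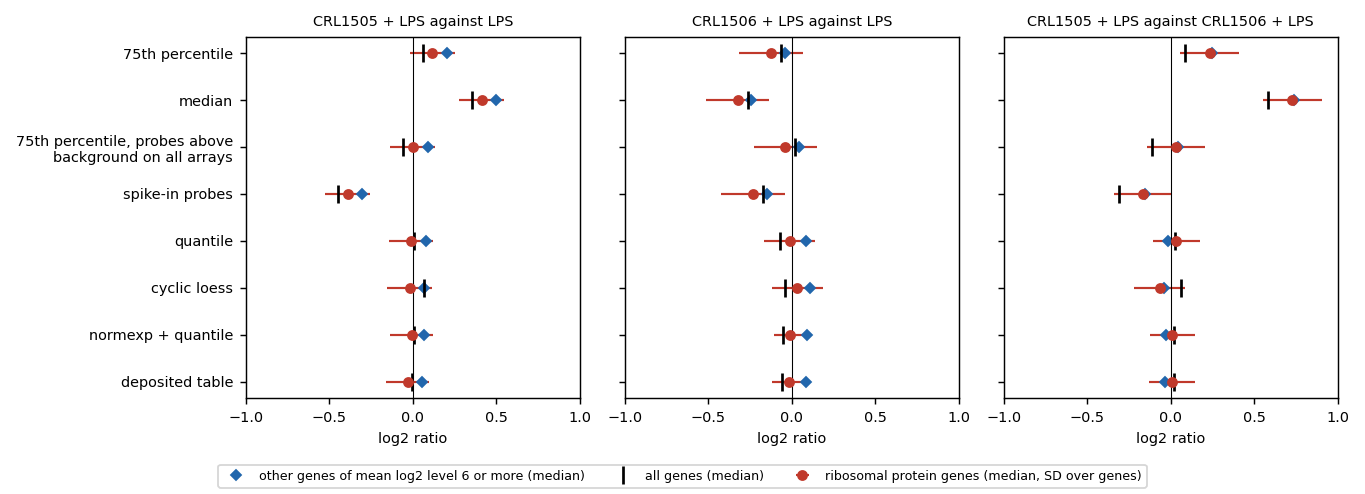
Median log2 ratio (x axis) of the ribosomal protein genes (red, bars are the SD over genes), of other genes with a mean log2 level of 6 or more (blue) and of all genes (black bars) under 8 normalizations (rows) in the 3 comparisons. The red and blue points move together from row to row, and the red points stay to the left of the blue ones in the first 2 panels. The black bars move with them in full only in the rows that shift a whole array by a constant. In the rows that shift a whole array by a constant, the distances between the medians cannot change.

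The place of single genes within the set moved less. Relative to the members' median, Rps2 stood at 0.25 with CRL1505, and between 0.25 and 0.27 under the other normalizations. With CRL1506 it stood at -0.26, and between -0.26 and -0.16. Rpl17 stood between 0.25 and 0.28 with CRL1505 and between -0.15 and -0.06 with CRL1506. For Rps7 the ranges were 0.12 to 0.15 and -0.17 to -0.12. Rps15 stood between -0.35 and -0.29 with CRL1505 and between -0.13 and -0.06 with CRL1506, and Rpl37a between -0.42 and -0.34 and between -0.26 and -0.09. Rpl23a stood between -0.35 and -0.23 with CRL1506. In these comparisons each of the genes kept to one side of the set in every normalization run. The scalings that shift a whole array by a constant cannot move a gene relative to the set. Only the quantile and cyclic loess runs and the deposited table could have done so. The deposited table was closely reproduced by normexp with quantile normalization, so it is hardly a separate check. The genes were also chosen as extremes under the main scaling.

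Several members have a close relative, and some relatives are known to be used in particular tissues. Rpl3l, the striated-muscle form of Rpl3, was dim, with signals of 71.0 on the LPS array, 39.6 with CRL1505 + LPS and 82.0 with CRL1506 + LPS. Its ratios were -0.32 and 0.30, beside 0.21 and -0.14 for Rpl3. Relative to the set, however, Rpl3l lay between -0.43 and 0.11 with CRL1505, so its direction turned with the normalization.

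Rpl37, of the large subunit, has 1 probe on the array and it was dim, with signals of 51.1 with LPS, 33.8 with CRL1505 + LPS and 53.0 with CRL1506 + LPS. Its ratios were -0.07 and 0.14, and relative to the set it ran from -0.19 to 0.45 with CRL1505, so it too turned with the normalization.

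Rpl10l and Rpl39l, both known from the testis, were at or near background. Rpl10l was well above background on the LPS array only, with signals of 38.9, 6.21 and 19.9, and was at least 1.11-fold lower with CRL1506. Rpl39l was well above background on no array, with signals of 6.82, 6.16 and 6.79. Rpl10 and Rpl39 themselves were bright, with ratios of 0.16 and 0.10 with CRL1505 and -0.13 and -0.07 with CRL1506. Rps27l, a p53 target, stood at -0.13 and -0.24, and Rps27 at -0.02 and -0.16.

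Rps4l had signals of 54.0 with LPS, 121 with CRL1506 + LPS and 21.7 with CRL1505 + LPS, the last not well above background. It was 2.40-fold higher with CRL1506 than with LPS alone, and at least 1.27-fold lower with CRL1505. Between the strains it was at least 3.04-fold lower with CRL1505. The signals order the arrays CRL1506, LPS, CRL1505, from 1 spot on each. Its log2 ratio with CRL1506 was 0.50 under normexp with quantile normalization and 0.52 in the deposited table, so the 2-fold call was lost there. Rps4x, the X-linked coding gene, stood at 0.08 and -0.12.

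Rpl7, Rpl22 and Rpl36a were at 0.06, -0.02 and 0.05 with CRL1505 and at -0.24, 0.05 and -0.08 with CRL1506. Their relatives outside the symbol rule were Rpl7l1 at 0.08 and -0.51, Rpl22l1 at 0.21 and -0.21, and Rpl36al at 0.28 and 0.03. The probes of Rpl36a disagreed: its 10-spot probe gave -0.28 and -0.46.

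The stalk of the large subunit, which recruits the translation factors, is built of Rplp0, Rplp1 and Rplp2. With CRL1505 they stood at 0.05, 0.31 and 0.22. With CRL1506 they stood at -0.19, 0.05 and -0.06. Between the strains they were close to one another, from 0.24 to 0.28.

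Members with known roles beside protein synthesis lay inside the range of the set. Rps6, the substrate of the S6 kinases, was at 0.06 ± 0.05 (SD over 10 spots) with CRL1505 and -0.14 ± 0.05 with CRL1506. Rpl13a was at 0.11 and -0.12, from 1 probe with signals of 80695, 60400 and 69583. Rps3 was at 0.11 ± 0.05 and -0.22 ± 0.06 (SD over 10 spots), with -0.07 and -0.20 for its second probe. Rpl5 and Rpl11, which with 5S rRNA can hold back Mdm2 and so stabilise p53, were at 0.15 and -0.04 with CRL1505 and at -0.20 and -0.05 with CRL1506. Rpsa, also known as the laminin receptor, was at -0.06 and 0.01.

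Rps19 and Rps26, 2 genes mutated in Diamond-Blackfan anaemia, were at 0.12 and 0.22 with CRL1505 and at -0.07 and -0.15 with CRL1506. Rps27a, made as a fusion with ubiquitin, was at 0.23 and 0.01. Rpl38, known for the translation of Hox mRNAs, was at -0.04 and 0.00, and Rps25, needed by several viral internal ribosome entry sites, at 0.16 and -0.17. None of the 12 genes named for such roles, Rpl10 among them, lay farther from the set's median than the SD seen between probes over the array. Between the bright probes of members that SD was smaller, 0.07 with CRL1505 and 0.05 with CRL1506. Rpsa, by its representing probe at -0.17 and 0.14 from the set's median, lay beyond it in both. The second Rpsa probe gave ratios of -0.01 and -0.08, where the set's medians were 0.12 and -0.12. Rpl11, Rpl38 and Rps27a also lay beyond it in both. Rps26 did so with CRL1505 only, and Rps3, Rpl5, Rps19 and Rps25 with CRL1506 only. Rpl10, Rpl13a and Rps6, the last at -0.05 and -0.02, lay within it in both.

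The other ribosomal genes that the symbol rule leaves out stood with the members. Under the main scaling all 7 were above 0 with CRL1505 and 5 of 7 below 0 with CRL1506, with medians of 0.16 and -0.12. Of all genes well above background on both arrays, 7209 of 13242 were above 0 with CRL1505 and 8387 of 14407 below 0 with CRL1506. The ribosomal genes outside the rule are named here in part. Among them were Rps3a1 at 0.22 and -0.16, Fau, made as a fusion with a ubiquitin-like protein, at 0.16 and 0.00, and Rack1, a scaffold on the small subunit, at 0.03 and -0.01.

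Next to the cytosolic ribosome, the 78 mitochondrial ribosomal protein genes had a median of -0.05 with CRL1505 and an SD of 0.37, beside 0.14 for the members, and 1, Mrpl18 at -1.20, was 2-fold lower. With CRL1506 the median was -0.06 with an SD of 0.15, beside 0.19 for the members. The 0.19 includes the dim Rps4l at 1.26, and the SD was 0.10 over the 77 members of mean log2 level 6 or more. The 25th and 75th percentiles were -0.16 and 0.02 for the mitochondrial genes and -0.17 and -0.06 for the members. The 54 initiation factor genes compared had a median of 0.21 and an SD of 0.41 with CRL1505, where Eif5b at 1.56 and Eif4g2 at 1.15 were 2-fold higher, and -0.06 and 0.29 with CRL1506, where Eif4e1b at 1.42 was. No test of these differences in spread is possible with 1 array a group.

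A list of 18 elongation factor and other TOP mRNAs, some of them initiation factor subunits, had medians of 0.08 with CRL1505 and -0.12 with CRL1506, and SDs of 0.30 and 0.12. None was 2-fold higher or lower. Eef1a1, which brings aminoacyl-tRNA to the ribosome, was at 0.31 and -0.12, Eef2, the translocase, at 0.16 and -0.23, and Pabpc1, the poly(A)-binding protein, at 0.32 and 0.14.

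Under the main scaling the 34 ribosome biogenesis genes had a median of 0.18 with CRL1505, 30 of them above 0, and of 0.07 with CRL1506, 24 above 0. Of all genes well above background on both arrays, 7209 of 13242 were above 0 with CRL1505 and 6020 of 14407 with CRL1506. Counts by side of 0 depend on the scaling. None was 2-fold higher or lower. Ubtf, the RNA polymerase I activator, was at 0.74 and 0.01, and the nucleolar protein Nop10 at -0.45 and -0.37. Of the 10 regulators of ribosome synthesis compared, Max, the partner of Myc, was 2-fold higher with CRL1505 at 1.35 and stood at 0.25 with CRL1506. Myc itself was at 0.34 and -0.56, and Larp1 at 0.68 and 0.19.

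**Figure D4:**
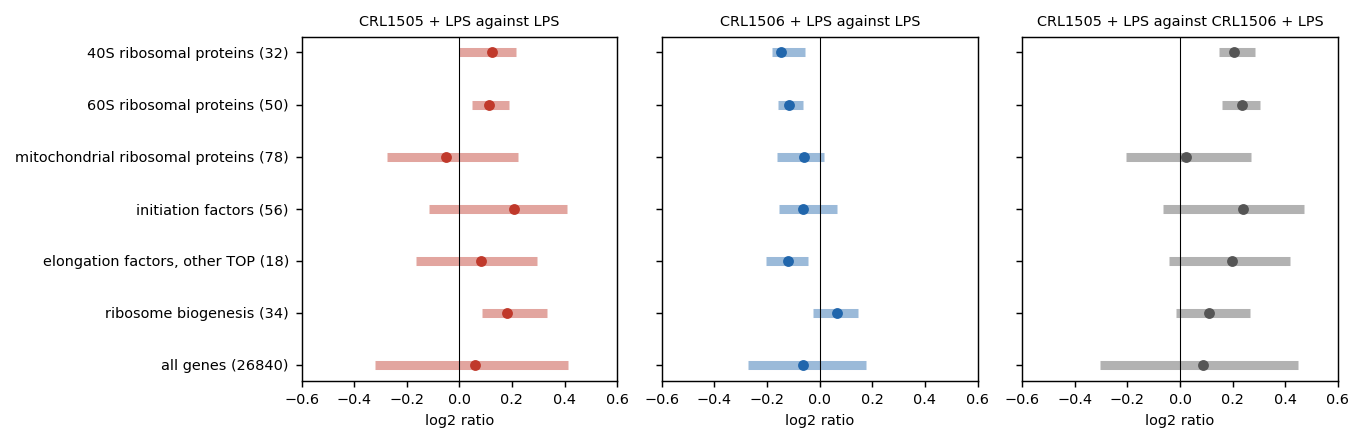
Median (points) and middle range from the 25th to the 75th percentile (bars) of the log2 ratio (x axis) for 6 gene groups and all genes (rows; the number on the array in brackets) in the 3 comparisons. The 2 groups of cytosolic ribosomal proteins have the narrowest bars in all 3 panels. Genes not well above background on both arrays of a comparison are left out.

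The promoters of the members share sequence that the symbol rule did not use. RefSeq promoters (GRCm38.p6, from 250 bases before the start to 50 after) were found for 61 members, 73 promoters in all. A run of 8 or more pyrimidines on the coding strand touching the 20 bases on either side of the start was present in 47.9% of them and in 21.0% of all 32851 promoters. The letters CCGGAAG, bound by ETS factors such as GABP, were found on either strand in 35.6% against 8.86%, AAGATGG, the core of a YY1 site, in 15.1% against 6.34%, and GGGCGG, the GC box, in 57.5% against 35.7%. For TATAAA, the TATA box, the shares were 9.59% and 13.6%, and for CACGTG, the E-box bound by Myc and Max, 11.0% and 7.15%. None of these motifs contains another, each was counted on its own where matches overlapped, and a match is not a bound site.

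The sequences from 40 bases before to 20 after the start follow for members with and without the run, which is in capitals.

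Rpl4, chr9:64173347-64173406, plus strand: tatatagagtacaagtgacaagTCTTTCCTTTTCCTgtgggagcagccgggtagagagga

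Rpl7a, chr2:26910767-26910826, plus strand: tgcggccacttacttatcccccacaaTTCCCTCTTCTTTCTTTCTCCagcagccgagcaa

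Rps18, chr17:33955646-33955705, minus strand: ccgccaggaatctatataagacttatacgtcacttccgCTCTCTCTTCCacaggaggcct

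Rps2, chr17:24720023-24720082, plus strand: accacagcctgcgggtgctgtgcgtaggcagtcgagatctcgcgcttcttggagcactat

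Rps7, chr12:28635934-28635993, minus strand: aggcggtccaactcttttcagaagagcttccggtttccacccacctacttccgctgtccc

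Of the 33 genes with such a run 32 were measured in both comparisons, with a median log2 ratio of 0.12 with CRL1505 and -0.11 with CRL1506, and of the 28 without it 27 were, with medians of 0.09 and -0.13. The SD over genes was 0.10 with the run and 0.16 without it for CRL1505, and 0.07 and 0.14 for CRL1506. The dim Rpl3l and Rpl37, which are limited by background, are in the group without the run. There Rpl3l had the lowest ratio with CRL1505, -0.32, and the highest with CRL1506, 0.30. The part of these dim genes in the SDs was not tested. Rpl4, Rpl7a and Rps18 were at 0.32, 0.08 and 0.27 with CRL1505.

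Of the members, 60 had more than 1 probe, and most bright probes of a gene gave like ratios. For the 54 members with several bright probes the median SD between them was 0.07 with CRL1505 and 0.05 with CRL1506. On 43 RefSeq transcripts with 2 or more such probes, the one nearest the 3′ end exceeded the one nearest the 5′ end by a median of 0.05 with CRL1505 and of 0.03 with CRL1506.

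Rps24 is known for splice forms that differ at the end of the protein, and 3 of its probes were made for 3 RefSeq transcript variants. The probe with signals of 283964 with LPS, 219395 with CRL1505 + LPS and 258979 with CRL1506 + LPS gave ratios of 0.15 and -0.04. The second, with 46636, 42595 and 40557, gave 0.39 and -0.11. The last, with 14533, 14407 and 12849, gave 0.51 and -0.09. The positions of these 2 span more than the 60 bases of a probe, as where a probe crosses a splice junction. With CRL1505 the 3 probes thus ranged over 0.36 in log2 ratio, and with CRL1506 they lay within 0.07. A further Rps24 probe, made for another RefSeq entry, was dim, with signals of 470, 318 and 762. It gave -0.04 and 0.79, so with CRL1506 it lay far from the other 3.

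Members also had dim probes, here those at least 8-fold below the brightest probe of the gene, and 21 of these 27 were well above background on all arrays. Of the 21, 13 probes in 12 genes were designed to transcripts known by an Ensembl name, a split made after the values were seen. With CRL1505 all 13 had a lower ratio than the brightest probe of their gene, with a median difference of -0.43, and with CRL1506 12 of 13 had a higher one, with a median difference of 0.25. Rpl13, Rpl41 and Rps9 show it. The dim Rpl13 probe had signals of 327, 181 and 455 on the LPS, CRL1505 + LPS and CRL1506 + LPS arrays and ratios of -0.33 and 0.57, against 0.12 and -0.10 for the brightest probe. The dim Rpl41 probe, with 2393, 1049 and 2792, gave -0.67 and 0.31, against -0.04 and -0.13. A dim Rps9 probe, with 210, 103 and 277, gave -0.50 and 0.49, against 0.20 and -0.13, while another, with 1433, 1046 and 974, gave 0.07 and -0.47 and was the 1 exception with CRL1506.

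The same direction was seen in Rpl6 at -0.34 and 0.43, Rpl7a at -0.49 and 0.11, Rps12 at -0.39 and 0.13 and, for a probe of a transcript without an Ensembl name, Rps13 at -0.61 and 0.51. The 8 other dim probes were mixed, 4 below and 4 above their brightest probe with CRL1505 and 5 below and 3 above with CRL1506. Of all 21, 81.0% lay below the brightest probe of their gene with CRL1505 and 28.6% with CRL1506. Among 214 dim probes of 155 other bright genes, the shares were 63.6% and 44.4%. Dim and bright probes of a gene also differ in signal over background and in the number of spots, whose part in these differences was not tested.

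**Figure D5:**
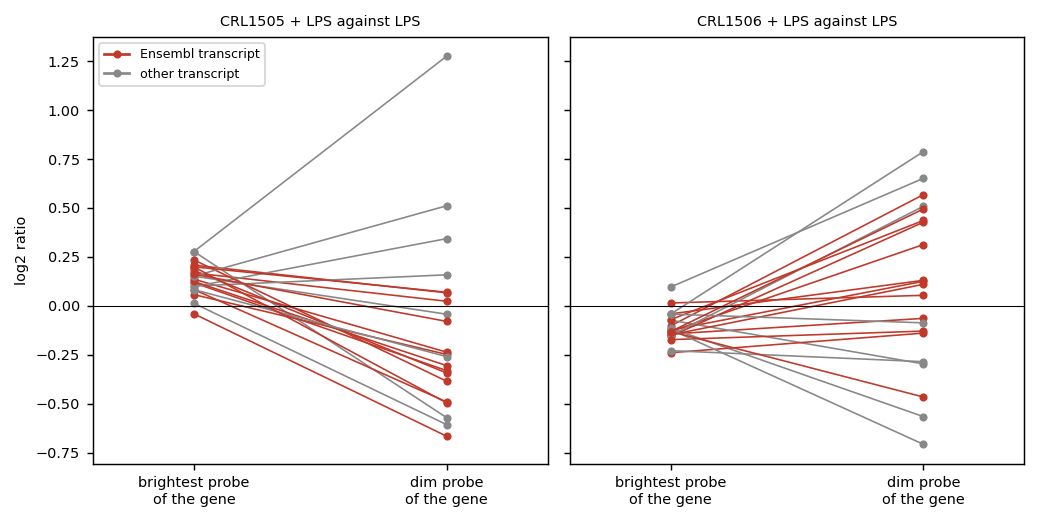
Log2 ratio (y axis) of the brightest probe of a ribosomal protein gene joined to that of each dim probe of the same gene that was well above background on all 3 arrays, for CRL1505 + LPS (left) and CRL1506 + LPS (right) against LPS. The 13 probes of Ensembl transcripts (red) run downwards with CRL1505, and 12 of them upwards with CRL1506; the 8 others are grey.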

How the data were processed

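Total RNA of RAW 264.7 cells was hybridised by the authors to one-colour (Cy3) Agilent mouse 8x60K arrays, 1 per group. The deposited scanner files hold background-subtracted intensity values (processed signal), per the file headers from Feature Extraction 12.0.3.1, a different release from the one the design text names. The deposited log2 table was reproduced closely by normexp background correction and quantile normalization in limma, and served as an alternative.

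Log2 intensities of 59305 gene spots were shifted to each array's 75th percentile. Spots called uneven or population outliers were left out (25, 24 and 25 of 775 member spots), repeated spots averaged, and the brightest probe taken for a gene. Where one array was not well above background, the ratio is a bound. No test was run, and the label "past 2-fold" is a description. Genes named are the 5 highest and 5 lowest of each comparison, paralog pairs, the stalk, a list with known roles, and members with discordant or dim probes; those outside the set illustrate their lists. Results for 2 genes are not reported here, though they stay in all counts. Members and lists were chosen with earlier results of these data known. The ratio steps were tested on simulated data. Python 3.11.15, pandas 2.3.3, R 4.3.3 and limma 3.58.1 were used. The submitters' notes name limma without a version.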

Additional observations from a re-analysis of the deposited data

Results flagged for a closer look

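A total of 5 members lay on opposite sides of 0 with the 2 strains, each farther than the SD seen between probes (0.23 with CRL1505 and 0.20 with CRL1506). How many of all genes did the same was not counted, so the 5 cannot be read as more or fewer than usual on the array. Over all genes the 25th and 75th percentiles of the ratio were -0.32 and 0.41 with CRL1505 and -0.27 and 0.18 with CRL1506. No difference between the strains was tested, since each group is 1 array and both ratios share the LPS array. Rps2 was at 0.37 with CRL1505 and -0.39 with CRL1506, Rpl17 at 0.36 and -0.27, and Rps7 at 0.26 and -0.29. Under 7 other normalizations Rps2 ran from -0.14 to 0.66 with CRL1505, the lowest with spike-in scaling, and from -0.59 to -0.18 with CRL1506. With CRL1505 Rpl17 ran from -0.15 to 0.66 and Rps7 from -0.24 to 0.56, the lowest again with spike-in scaling. Rpl3l was at -0.32 and 0.30, and under the other normalizations between -0.82 and 0.09 and between -0.02 and 0.38. Rps4l was at -0.34, a bound, with CRL1505 and at 1.26 with CRL1506.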

How the results depend on the processing

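No paired analysis was possible because each group is 1 array. Under the 12 alternatives the SD over members ran from 0.13 to 0.30 with CRL1505, from 0.10 to 0.21 with CRL1506 and from 0.14 to 0.34 between the strains, where 0.30 and 0.34 were those with dim probes kept and 0.10 that of normexp with quantile normalization. Median scaling gave medians of 0.41 (CRL1505), -0.32 (CRL1506) and 0.73 (between the strains), and spike-in scaling -0.39 and -0.17 for the first and last, while the median of all genes moved to 0.35, -0.26 and 0.58 and to -0.45 and -0.31. The number of members past 2-fold, 0, 1 and 1 in the 3 comparisons, was 0 with CRL1506 and 0 between the strains under normexp with quantile normalization, in the deposited table and with the filter that every array had to pass. Between the strains it was 4 with median scaling and 2 with spike-in scaling. With dim probes kept it was 1 with CRL1505 and 2 between the strains. At 4-fold it was 0 with CRL1506 and 0 between the strains. At 1.5-fold it was 4 between the strains, 2 higher and 2 lower, where 3000 of 15785 genes compared were higher and 2736 lower. The shares of all genes at 4-fold and under the alternatives are not given here. Of 1772 values of the 51 named genes, 330 moved by more than the SD between probes, and no 2-fold call changed sign. Dim members (Rpl3l, Rpl10l, Rpl37, Rpl39l and Rps4l) are limited by background, and the cause of the changes was not tested.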
